A study of Mus musculus with 12 samples.

Results

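The 10 genes described here are ones that mammalian cells switch on when oxygen is short, followed through 12 RNA-seq libraries of mouse embryonic stem cells: Adm, Ndrg1, P4ha1, Ndufa4l2, Egln3, Bnip3, Ankrd37, Vegfa, Pdk1 and Ddit4. These 10 genes were taken by symbol from the 19718 genes present in all 3 deposited tables, and each was found once in each table. The libraries form 6 groups of 2. Foxd3fl/fl;Cre-ER cells, which carry a floxed Foxd3 and a tamoxifen-activated recombinase, either received 4-hydroxytamoxifen at 2 µM for 3 days, which are called deleted, or none, which are called floxed. Both were grown in SL, which is Knockout-DMEM with 15% fetal bovine serum and leukemia inhibitory factor (LIF) on irradiated mouse embryonic fibroblast feeders, or in 2i, which is serum-free N2B27 medium with the MEK inhibitor PD0325901 (0.4 µM), the GSK3 inhibitor CHIR99021 (3 µM) and LIF. The other 2 groups are tetON Foxd3 cells, in which doxycycline (1 µg/µl, 3 days) drives Foxd3, and LF2 wild-type cells (WT), which also received doxycycline for 3 days. Both of these were grown without feeders in serum and LIF. No group received tamoxifen without the floxed allele, and tetON Foxd3 cells carry a transgene that WT cells lack, so the agent or the line and the Foxd3 change cannot be told apart within a comparison. No label tells if the libraries of a group came from separate cultures, and all p-values therefore refer to the spread among libraries that may be technical repeats. No source used here gives the oxygen level of the cultures.

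The hypoxia-inducible factors (HIFs) are pairs of an oxygen-sensitive alpha subunit (Hif1a, Epas1) and the stable partner Arnt. With oxygen present, prolyl hydroxylases (Egln1, Egln2, Egln3) mark the alpha subunit, the ubiquitin ligase subunit Vhl binds it and the protein is destroyed. When oxygen falls the alpha subunit lasts, enters the nucleus and binds a short core motif near its target genes. The targets move the cell from respiration to glycolysis, call for blood vessels and slow growth, and embryonic stem cells are known for a strongly glycolytic metabolism.

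The promoter windows below are shown as examples of windows that hold the HIF core motif. The sequences come from RefSeq (GRCm38.p6), are read 5′ to 3′ on the gene's strand, and cover the 250 bases before the gene's start. Capitals mark ACGTG or GCGTG on either strand, so that CACGT and CACGC are the same motifs read on the other strand. The Adm window is chr7:110627407-110627656 (plus strand), with matches 90 and 54 bases before the start. The P4ha1 window is chr10:59323046-59323295 (plus strand), with matches 163, 126 and 16 bases before the start. The Egln3 window is chr12:54203875-54204124 (minus strand), with a match 229 bases before the start. Of the Bnip3 window, chr7:138909520-138909756 (minus strand) is shown, without the last 13 bases, which GENCODE M21 places in an exon. It holds 5 matches, of which those at 108 and 107 bases are both strands of a CACGTG, the E-box that other factors also bind.
Adm: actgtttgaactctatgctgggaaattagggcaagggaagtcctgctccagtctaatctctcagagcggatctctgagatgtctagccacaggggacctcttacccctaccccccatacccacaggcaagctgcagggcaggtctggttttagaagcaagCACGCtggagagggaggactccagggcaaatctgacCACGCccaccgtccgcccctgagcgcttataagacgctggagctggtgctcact
P4ha1: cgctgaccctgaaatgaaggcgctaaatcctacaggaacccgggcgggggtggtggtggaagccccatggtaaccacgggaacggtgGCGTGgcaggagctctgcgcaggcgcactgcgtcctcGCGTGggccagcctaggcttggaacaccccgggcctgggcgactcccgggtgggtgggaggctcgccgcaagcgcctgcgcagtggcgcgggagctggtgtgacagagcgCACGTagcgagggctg
Egln3: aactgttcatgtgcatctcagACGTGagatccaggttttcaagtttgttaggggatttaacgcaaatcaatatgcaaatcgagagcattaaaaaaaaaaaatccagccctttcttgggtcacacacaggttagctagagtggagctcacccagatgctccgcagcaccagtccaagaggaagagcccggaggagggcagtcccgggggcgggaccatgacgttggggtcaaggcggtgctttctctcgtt
Bnip3: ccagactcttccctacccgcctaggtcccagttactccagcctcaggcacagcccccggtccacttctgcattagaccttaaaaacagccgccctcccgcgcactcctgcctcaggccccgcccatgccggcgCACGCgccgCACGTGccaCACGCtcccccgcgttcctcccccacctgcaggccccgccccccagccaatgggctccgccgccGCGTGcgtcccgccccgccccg

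RefSeq windows were found for 8 of the 10 genes, with 10 windows in all, since Vegfa and Pdk1 have a pair each. Ndrg1 and Ndufa4l2 had no entry in the promoter table. ACGTG or GCGTG on either strand was in 8 of the 10 windows, at least 1 for each of the 8 genes. For Vegfa the window before the first start held none, and its matches lie in a window inside the gene, of which 218 bases are in a GENCODE exon. Over the 32851 windows of all genes the share with either motif was 38.6%. ACGTG alone was in 6 of the 10 windows against 16.6% of all windows, GCGTG in 7 against 28.2%, and the E-box CACGTG in 1 against 6.02%. A match is a string of letters in the window and was not tested as a binding site.

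The level of Foxd3 checks the labels. In SL it was 1.62 and 1.83 FPKM (fragments scaled to transcript length and library size, so that levels are per length) with deletion and 4.53 and 4.81 FPKM without. In overexpression it was 53.2 and 50.1 FPKM in tetON Foxd3 and 10.6 and 14.1 FPKM in WT. In 2i it was 2.07 and 2.45 FPKM in the libraries labelled deleted and 2.51 and 2.42 FPKM in the floxed ones, so the groups overlap. The authors' deposited table lists it 1.7-fold higher in the libraries labelled deleted. Foxd3 thus does not bear out the 2i label, and every 2i direction here is that of the libraries labelled deleted. All 10 stem cell markers, Pou5f1, Sox2 and Nanog among them, were at a mean of 1 FPKM or more in all 6 groups. Between 11033 and 11919 genes reached 1 FPKM in a library; the depth of single libraries is unknown.

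**Figure D1:**
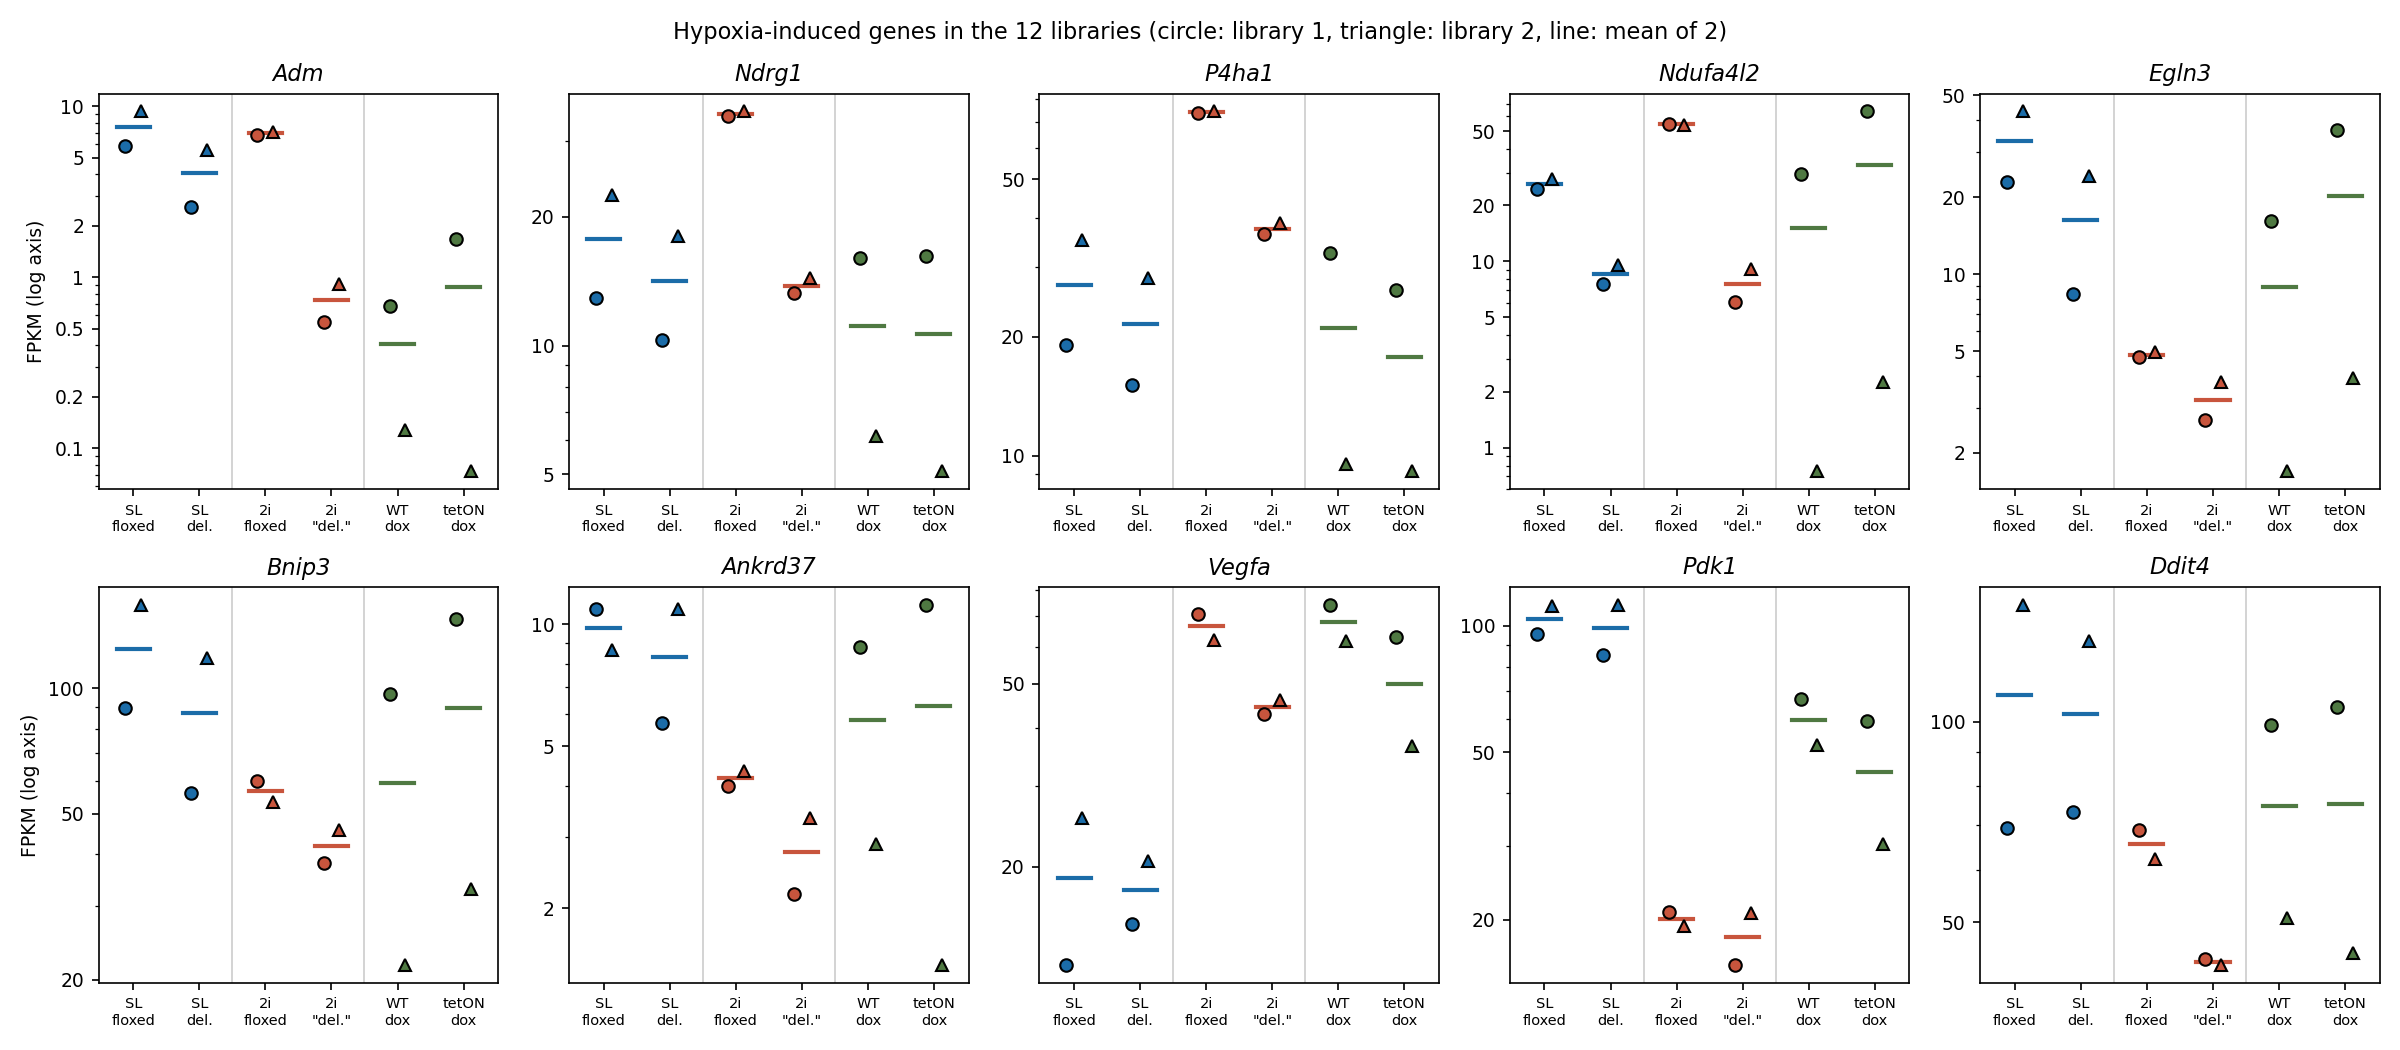
FPKM (log axis) of the 10 hypoxia-induced genes in each library, by group; circles are library 1, triangles library 2 and lines the mean of the 2, and "del." in 2i means labelled deleted. In 2i the groups lie apart for every gene but Pdk1, whereas in WT and tetON Foxd3 the 2 libraries of a group lie far apart, as for Ndufa4l2 (63.8 and 2.25 FPKM in tetON Foxd3).

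In 2i, 9 of the 10 hypoxia-induced genes fell in the libraries labelled deleted and none rose (limma on log2(FPKM + 1), adjusted p under 0.05). Over the 11637 genes tested 19.7% were lower and 47.9% higher. The largest falls were those of Ndufa4l2 and Adm, and Pdk1 did not pass. The median difference of the 10 genes was -0.57 on the log2(FPKM + 1) scale, against 0.19 over all genes tested. Both libraries labelled deleted lay below both floxed libraries for 9 of the genes, an arrangement found in 26.6% of all genes.

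Adm and Vegfa encode the secreted factors of the group. Adm encodes adrenomedullin, a vessel-dilating peptide (chr7:110627661-110629820, plus strand, GRCm38 and GENCODE M21 here and in the following positions). It measured 0.550 and 0.918 FPKM in the 2i libraries labelled deleted and 6.81 and 7.10 FPKM in the floxed ones, so the groups lie far apart. Its log2 difference was -2.21 (SE 0.12; limma adjusted p = 5.31e-06). Vegfa (chr17:46016993-46032369, minus strand), the main growth factor of blood vessels, measured 42.9 and 46.1 FPKM against 71.0 and 62.3 FPKM. Its fall was smaller, at -0.57 on the log2 scale (SE 0.07; limma adjusted p = 0.000226).

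Of the genes for mitochondria and fuel use, Ndufa4l2 moved most. Ndufa4l2 (chr10:127514967-127517154, plus strand), which encodes a relative of a respiratory chain subunit that is made under low oxygen, measured 6.04 and 9.11 FPKM in the libraries labelled deleted and 54.7 and 54.0 FPKM in the floxed ones. The difference was -2.71 on the log2 scale (SE 0.14; limma adjusted p = 4.23e-06). Bnip3 (chr7:138890836-138909519, minus strand), a mitophagy receptor of the outer mitochondrial membrane, measured 37.98 and 45.8 FPKM against 60.0 and 53.3 FPKM. It fell by 0.43 on the log2 scale (SE 0.09). Pdk1 (chr2:71873224-71903858, plus strand) encodes a kinase that shuts pyruvate dehydrogenase and so keeps pyruvate out of the mitochondrion. It measured 15.6 and 20.7 FPKM against 20.9 and 19.3 FPKM, and the groups overlap. Its difference was -0.15 on the log2 scale, with a 95% interval from -0.42 to 0.12 (limma adjusted p = 0.282).

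The remaining genes act in feedback, matrix and growth control. Egln3 (chr12:54178981-54203860, minus strand), a prolyl hydroxylase that acts on HIF and is itself a HIF target, measured 2.69 and 3.77 FPKM in the libraries labelled deleted and 4.72 and 4.94 FPKM in the floxed ones (log2 difference -0.47, SE 0.13; limma adjusted p = 0.0114). P4ha1 (chr10:59323296-59373304, plus strand), the catalytic subunit of collagen prolyl hydroxylase, measured 36.3 and 38.8 FPKM against 73.9 and 74.3 FPKM. Its groups lie far apart next to the spread within them, at a log2 difference of -0.96 (SE 0.06). Ndrg1 (chr15:66929318-66969640, minus strand), a stress-responsive gene linked to growth arrest and differentiation, measured 13.3 and 14.4 FPKM against 34.3 and 35.2 FPKM, a log2 difference of -1.27 (SE 0.07). Ddit4 (chr10:59949669-59951834, minus strand), whose product REDD1 restrains mTOR signalling, measured 44.1 and 43.1 FPKM against 68.7 and 62.3 FPKM. The groups do not overlap, and the log2 difference was -0.57 (SE 0.06; limma adjusted p = 0.000104). Ankrd37 (chr8:45996902-46005707, minus strand), an ankyrin repeat gene known as a HIF target, was low, at 2.17 and 3.34 FPKM against 4.00 and 4.36 FPKM, and differed by -0.48 (SE 0.15; limma adjusted p = 0.0184).

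The count depended on several settings and on both libraries labelled deleted. All genes together lean upward in 2i, and after median-of-ratios scaling the split of 5573 higher and 2291 lower genes became 3509 and 3921 (30.3% and 33.8%). All 10 hypoxia-induced genes were then lower, Pdk1 at -0.37 (limma adjusted p = 0.0259). When all 12 libraries shared 1 estimate of the spread, Adm alone remained past the threshold (limma adjusted p = 0.002; 11% of all genes lower). That estimate takes in the spread of the SL and doxycycline libraries. The SE of the 2i difference of Ndufa4l2 was then 1.32, against 0.14 from the 2i libraries alone. Egln3 and Ankrd37 also lost the call with no filter on low values (limma adjusted p = 0.0531 and 0.0765) and without library 1 of the group labelled deleted (0.114 and 0.17). Without library 2 of that group all 10 genes were lower, Pdk1 at -0.34 (limma adjusted p = 0.0127). In the authors' deposited table the same 9 genes passed after adjustment (20.2% of its genes were lower), with signed folds from -1.63 for Bnip3 to -10.5 for Adm. Fibroblast marker transcripts summed to 681 to 685 FPKM in the libraries labelled deleted and 690 to 691 FPKM in the floxed ones, with Lum at 0 in both. Of the 10 fibroblast markers tested, 7 were higher and 2 lower, also after scaling, with medians of 0.73 and 0.57; Thy1 fell by 1.61 and Tagln rose by 1.31 on the log2 scale. Of the stem cell markers, 6 of 10 were higher (4 higher and 1 lower after scaling). Beside both lists, 47.9% of all genes were higher and 19.7% lower, and 30.3% and 33.8% after scaling. The part of both lists in the differences of the hypoxia-induced genes was not tested. Fewer cells that make a transcript and less of it per cell cannot be told apart in bulk RNA.

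**Figure D2:**
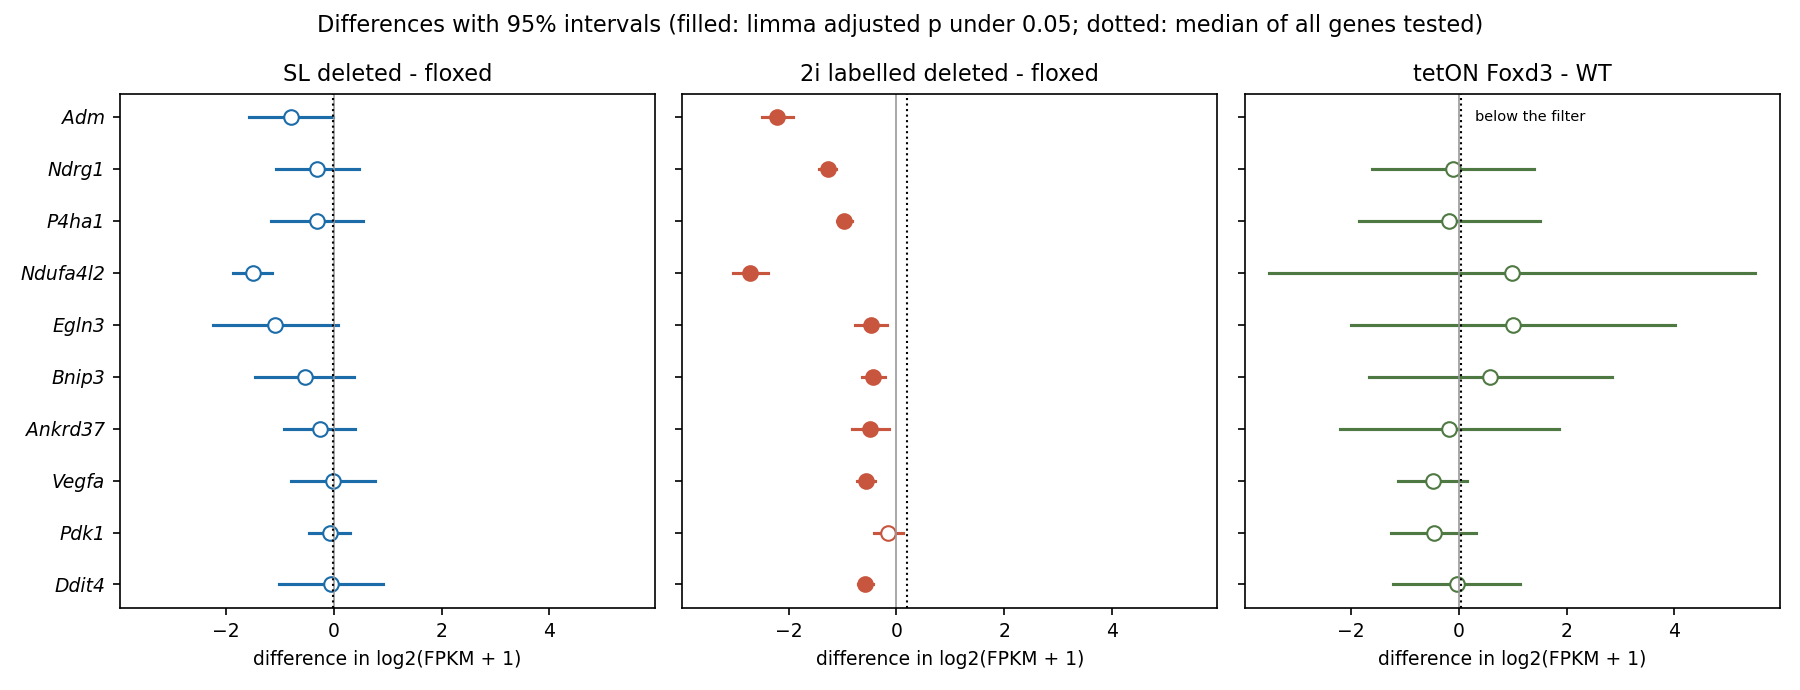
Difference in log2(FPKM + 1) of each hypoxia-induced gene (points) with its 95% interval (bars) in the 3 comparisons; filled points passed limma at an adjusted p under 0.05 and the dotted line is the median of all genes tested. In all, 9 genes are filled in 2i, none in the other panels, and the intervals in overexpression are wide, from -3.52 to 5.50 for Ndufa4l2.

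In SL none of the 10 hypoxia-induced genes passed the test after Foxd3 deletion (0% of 12024 genes were called lower and 0.00832% in either direction). Foxd3 itself did not pass in this fit (-1.06, SE 0.15; limma adjusted p = 0.137). A gene without a call in SL may thus still differ between the groups. All 10 differences were below 0, as were 51.6% of all genes, with a median of -0.31 for the 10 against -0.01. At an unadjusted p under 0.05, Adm and Ndufa4l2 were lower, and 3.05% of all genes were. For the same pair both deleted libraries lay below both floxed ones, an arrangement of 17.3% of all genes.

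Ndufa4l2 measured 7.57 and 9.62 FPKM after deletion, against 24.5 and 27.8 FPKM in floxed cells. These groups lie well apart, with a log2 difference of -1.51 (SE 0.15, 95% interval -1.87 to -1.14; limma adjusted p = 0.0873). The authors' deposited table gives a signed fold of -3.05 for it, and after adjustment it was the only one of the 10 genes called there (0.095% of genes lower). Adm measured 2.57 and 5.58 FPKM after deletion, against 5.89 and 9.35 FPKM, a difference of -0.80 (SE 0.32; limma adjusted p = 0.531) with the nearest libraries almost touching. Egln3, with 8.34 and 24.2 FPKM against 23.0 and 43.2 FPKM, differed by -1.09 (SE 0.48; limma adjusted p = 0.575). Its groups overlap, since deleted library 2 exceeded floxed library 1.

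The other 7 genes had SL groups that overlap. Bnip3 measured 56.1 and 118 FPKM after deletion, against 89.8 and 158 FPKM. P4ha1 measured 15.1 and 28.1 FPKM against 19.0 and 35.2 FPKM, and Ndrg1 10.3 and 18.1 FPKM against 12.9 and 22.5 FPKM. In each of these 3 genes both second libraries exceeded both first ones, whatever the group. Ankrd37 measured 5.72 and 10.9 FPKM against 10.9 and 8.65 FPKM, and Pdk1 85.3 and 112 FPKM against 95.8 and 112 FPKM. Vegfa and Ddit4 stood nearest to no difference, at -0.01 (95% interval -0.79 to 0.77) and -0.05 (-1.01 to 0.91). Vegfa measured 15.0 and 20.5 FPKM against 12.2 and 25.5 FPKM, and Ddit4 73.2 and 132 FPKM against 69.3 and 150 FPKM. The floxed libraries thus enclose the deleted ones for both genes.

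The SL count moved with the deleted library left out, and also with the replicate number as a block, as given at the end. Without library 2 of the deleted group 5 of the genes were lower (Adm, Bnip3, Egln3, Ndufa4l2 and P4ha1; 0.698% of all genes), and without library 1 of that group Ndufa4l2 alone was (0.133%), with the median of the 10 at 0.09. In both of these fits the lone deleted library is assumed to vary like the floxed ones. Each gene's spread was there taken from genes of like level alone. Without floxed library 1 or 2 none passed, and the medians were -0.71 and -0.05. Fibroblast markers moved with the groups: 18 of 22 were tested, all 18 lay above 0 with a median difference of 0.53 and none was called, and their summed level was 1136 to 1321 FPKM after deletion, against 889 to 906 FPKM, with none at 0. Their part in the SL differences was not tested.

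In overexpression none of the 9 hypoxia-induced genes tested passed, in either direction (1.65% of 11972 genes were lower and 0.994% higher). Of them 0 passed at an unadjusted p under 0.05 too, where 10.4% of all genes were lower. By the authors' deposited p-values after adjustment 0 passed as well, beside 1.96% of genes higher and 2.59% lower. Adm was under the filter, a mean of 1 FPKM in at least 1 group, with 1.68 and 0.0733 FPKM in tetON Foxd3 and 0.682 and 0.128 FPKM in WT. No gene of the 10 had groups that lay apart, whereas both tetON Foxd3 libraries were below both WT ones for 22.8% of all genes and above for 29.5%. The spread within groups was the main feature. In tetON Foxd3 and in WT, library 1 exceeded library 2 for all 10 genes.

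Ndufa4l2 measured 63.8 and 2.25 FPKM in tetON Foxd3 libraries 1 and 2 and 29.6 and 0.746 FPKM in WT libraries 1 and 2. Library 1 was thus 28.3-fold above library 2 in tetON Foxd3 and 39.6-fold in WT, and the group difference was 0.99 (95% interval -3.52 to 5.50). Egln3 measured 36.6 and 3.94 FPKM in tetON Foxd3 and 16.1 and 1.69 FPKM in WT, ratios of 9.30 and 9.48 between libraries. Bnip3, at 146 and 33.0 FPKM and at 96.8 and 21.7 FPKM, had ratios of 4.44 and 4.46. For both genes the ratio between libraries was nearly the same in the 2 lines. Ankrd37 measured 11.2 and 1.45 FPKM in tetON Foxd3 and 8.77 and 2.88 FPKM in WT. P4ha1 measured 26.3 and 9.13 FPKM against 32.6 and 9.52 FPKM, and Ndrg1 16.2 and 5.08 FPKM against 16.1 and 6.13 FPKM. These 3 genes had ratios between libraries from 2.62 (Ndrg1 in WT) to 7.70 (Ankrd37 in tetON Foxd3). Ddit4 measured 105 and 45.0 FPKM against 99.0 and 50.7 FPKM. Pdk1, at 59.3 and 30.4 FPKM against 67.0 and 52.2 FPKM, and Vegfa, at 63.1 and 36.6 FPKM against 74.1 and 62.0 FPKM, spread least. Their group differences were -0.47 (95% interval -1.26 to 0.32) and -0.49 (-1.13 to 0.16).

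On the log2(FPKM + 1) scale 7 of 9 genes stood past 2-fold above library 2 in tetON Foxd3 library 1, against 0.802% of all genes, and 6 of 9 did so in WT, against 0.794%. The median difference between libraries was 1.50 in tetON Foxd3 and 1.33 in WT, and 0.02 and 0.01 over all genes. Across the 10 genes the library difference in tetON Foxd3 and that in WT had a Pearson r of 0.955; the genes are not independent of each other, and a library number is shared by the 2 lines. Other hypoxia targets were higher in library 1 for 27 of 27 genes in tetON Foxd3 (median 0.60) and 24 of 27 in WT (0.51), and glycolysis genes for 17 of 18 in each (0.70 and 0.66). HIF regulators (-0.08 and -0.11) and ATF4 stress genes (-0.28 and -0.39) had medians below 0. In SL the order was the opposite: library 2 was the higher for 10 of 10 genes in the deleted and 9 of 10 in the floxed group, with medians of -0.83 and -0.78 against -0.01 over all genes in both. In 2i the medians were -0.29 in the group labelled deleted and 0.01 in the floxed group.

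**Figure D3:**
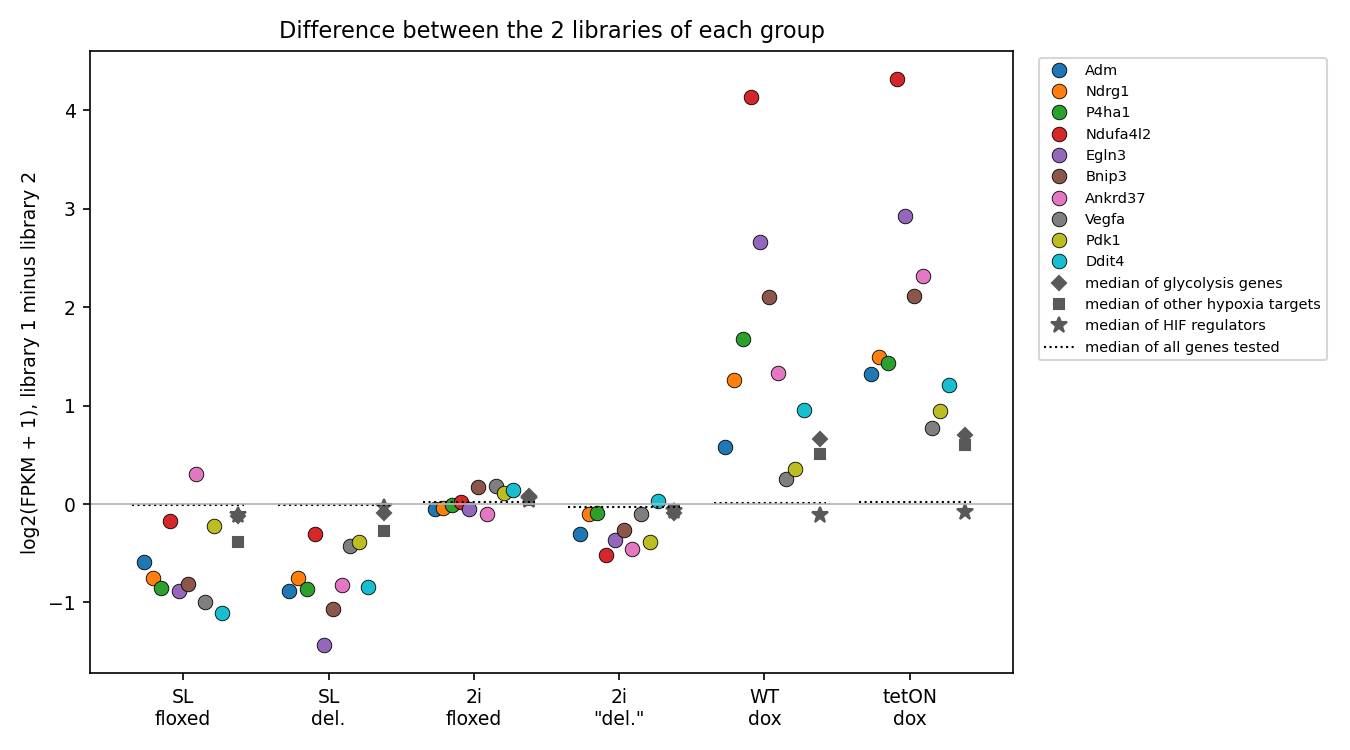
Library 1 minus library 2 of each group in log2(FPKM + 1) for the hypoxia-induced genes (coloured points), with medians of 3 gene lists (grey symbols) and of all genes tested (dotted). The genes lie above 0 in both doxycycline groups, up to 4.32 in tetON Foxd3 and 4.13 in WT for Ndufa4l2, and mostly below 0 in both SL groups.

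Which library was left out turned the direction of the overexpression comparison, and each such fit leaves the library numbers unequal between the lines. The median of the genes tested was -0.87 without tetON Foxd3 library 1, 0.80 without tetON Foxd3 library 2, 0.52 without WT library 1 and -0.64 without WT library 2, with none called in any of these fits. With the replicate number as a block, 3 of 9 genes were higher and 1 lower, beside 10.3% and 10.4% of all genes. These genes are named at the end. Fibroblast markers summed to 448 to 493 FPKM in tetON Foxd3 and 318 to 331 FPKM in WT. Of these markers Col3a1 and Lum were at 0 in both and Dcn also in WT. Of the 9 tested, Vim alone was higher (0.93; limma adjusted p = 0.0261). These values were not tested as a part of the spread.

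The difference between libraries labelled deleted and floxed was also compared between media, as the 2i difference minus the SL difference over 8 libraries. Foxd3 does not bear out the 2i label, so the sign of the 2i difference rests on the labels as given. Adm and Ndufa4l2 had a lower difference in 2i than in SL, by -1.41 (SE 0.40; limma adjusted p = 0.0378) and -1.21 (SE 0.24; limma adjusted p = 0.0123). These 2 of 10 compare with 5.55% of 12497 genes lower and 18.4% higher, or 11.7% and 9.84% after scaling, where the same pair passed. The other 8 genes did not pass, from -0.97 for Ndrg1 (95% interval -1.84 to -0.10; limma adjusted p = 0.0973) to 0.61 for Egln3 (-0.76 to 1.98). The median of the 10 was -0.54 against 0.17 over all genes. With 1 library left out between 0 and 4 of the genes passed, none of them without 2i floxed library 2, and Adm lost the call in 6 of the 8 such fits. With no filter on low values Ndufa4l2 alone passed.

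Levels set across tables carry no test, since the tables may have been normalized separately. Ndrg1, P4ha1 and Vegfa were higher in 2i floxed cells (means of 34.8, 74.1 and 66.7 FPKM) than in SL floxed cells (17.7, 27.1 and 18.9 FPKM). Pdk1, Egln3, Bnip3 and Ankrd37 had the opposite order, at 20.1, 4.83, 56.6 and 4.18 FPKM in 2i floxed and 104, 33.1, 124 and 9.79 FPKM in SL floxed cells. The hypoxia-induced genes therefore did not share 1 order of the media. Adm was near 7 FPKM in both floxed groups (7.62 ± 2.44 in SL and 6.96 ± 0.202 in 2i, SD, n = 2 each) and 0.405 ± 0.392 FPKM in WT.

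Of the 16 HIF regulators, 13 were tested in 2i, of which 8 were higher, 1 lower and 4 did not pass, beside 47.9% higher and 19.7% lower of all genes; the median was 0.34 against 0.19 over all genes. Hif1a, the main alpha subunit, measured 29.8 and 31.1 FPKM in the libraries labelled deleted and 32.5 and 34.2 FPKM in the floxed ones (-0.13, SE 0.06; limma adjusted p = 0.102). Epas1 (0.10), Arnt (0.13) and the inhibitory subunit gene Hif3a (-0.12) did not pass either. Cited2, whose product competes with HIF for its coactivators and is itself a HIF target, rose from 3.01 and 2.86 FPKM in the floxed libraries to 11.4 and 13.0 FPKM (1.74, SE 0.10; limma adjusted p = 6.41e-06). The hydroxylase genes Egln2 (0.83), Hif1an (0.50) and Egln1 (0.43) were higher, the opposite of Egln3. Vhl fell from 26.9 and 28.7 FPKM to 14.6 and 14.6 FPKM (-0.88, SE 0.07; limma adjusted p = 2.36e-05).

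The coactivator genes Ep300 (0.62) and Crebbp (0.44) and the ligase subunit genes Cul2 (0.34) and Tceb2 (0.22) were also higher. Scaling changed part of this: 5 regulators were then higher and 3 lower, beside 30.3% and 33.8% of all genes, with Egln1 (0.26), Cul2 (0.12) and Tceb2 (-0.01) no longer past the threshold and Hif1a (-0.35; limma adjusted p = 0.00185) and Hif3a (-0.31) lower. Epas1 and Arnt also turned to -0.08 and -0.09. No regulator passed limma in SL or overexpression, 14 being tested in each, Arnt2 among them. At an unadjusted p under 0.05, 0 regulators passed in SL, beside 3.05% of all genes lower. In overexpression 2 regulators were then lower and 1 higher, beside 10.4% of all genes lower. Their SL differences ran from -0.52 for Egln1 to 0.27 for Epas1, and in overexpression from -0.70 for Cited2 to 0.80 for Hif3a. Between media Cited2 (1.71), Egln2 (0.81), Hif1an (0.55) and Tceb2 (0.39) had a higher and Vhl (-0.76) a lower difference in 2i. After scaling Cited2 (1.54) alone was higher, and Vhl (-0.96) and Hif1a (-0.46) were lower.

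Other known hypoxia targets went both ways in 2i. Of 26 tested, 14 were lower, 7 higher and 5 did not pass, with a median of -0.42. Over all genes tested 19.7% were lower and 47.9% higher, with a median of 0.19. Bhlhe40, a transcriptional repressor, and Plod2, a collagen lysyl hydroxylase, fell by 0.88 and 0.66 on the log2 scale. Tfrc, the transferrin receptor, and Ak4, a mitochondrial adenylate kinase, rose by 1.18 and 1.13. After scaling 16 were lower and 4 higher, beside 33.8% and 30.3% of all genes. Of the glycolysis genes 14 of 18 were lower and 2 higher, with a median of -0.57, beside the same shares of all genes. After scaling 14 were lower and 0 higher, again beside 33.8% and 30.3%. Ldha (-0.86), Pgk1 (-0.69), Aldoc (-0.68) and Pfkl (-0.68), which encode enzymes of the pathway, were those with the smallest p. In SL 0 of 27 other targets and 0 of 18 glycolysis genes passed, with medians of -0.20 and -0.23; Gpi1 (-0.51) and Ldha (-0.46) were the glycolysis genes nearest the threshold (limma adjusted p = 0.177 and 0.185). At an unadjusted p under 0.05, 4 other targets and 7 glycolysis genes were lower in SL and 2 and 0 higher, beside 3.05% of all genes lower. In overexpression Gys1, the glycogen synthase of muscle and most tissues, fell by 0.92 (limma adjusted p = 0.0399), and no glycolysis gene passed. Nor did any glycolysis gene at an unadjusted p under 0.05, where 10.4% of all genes were lower.

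**Figure D4:**
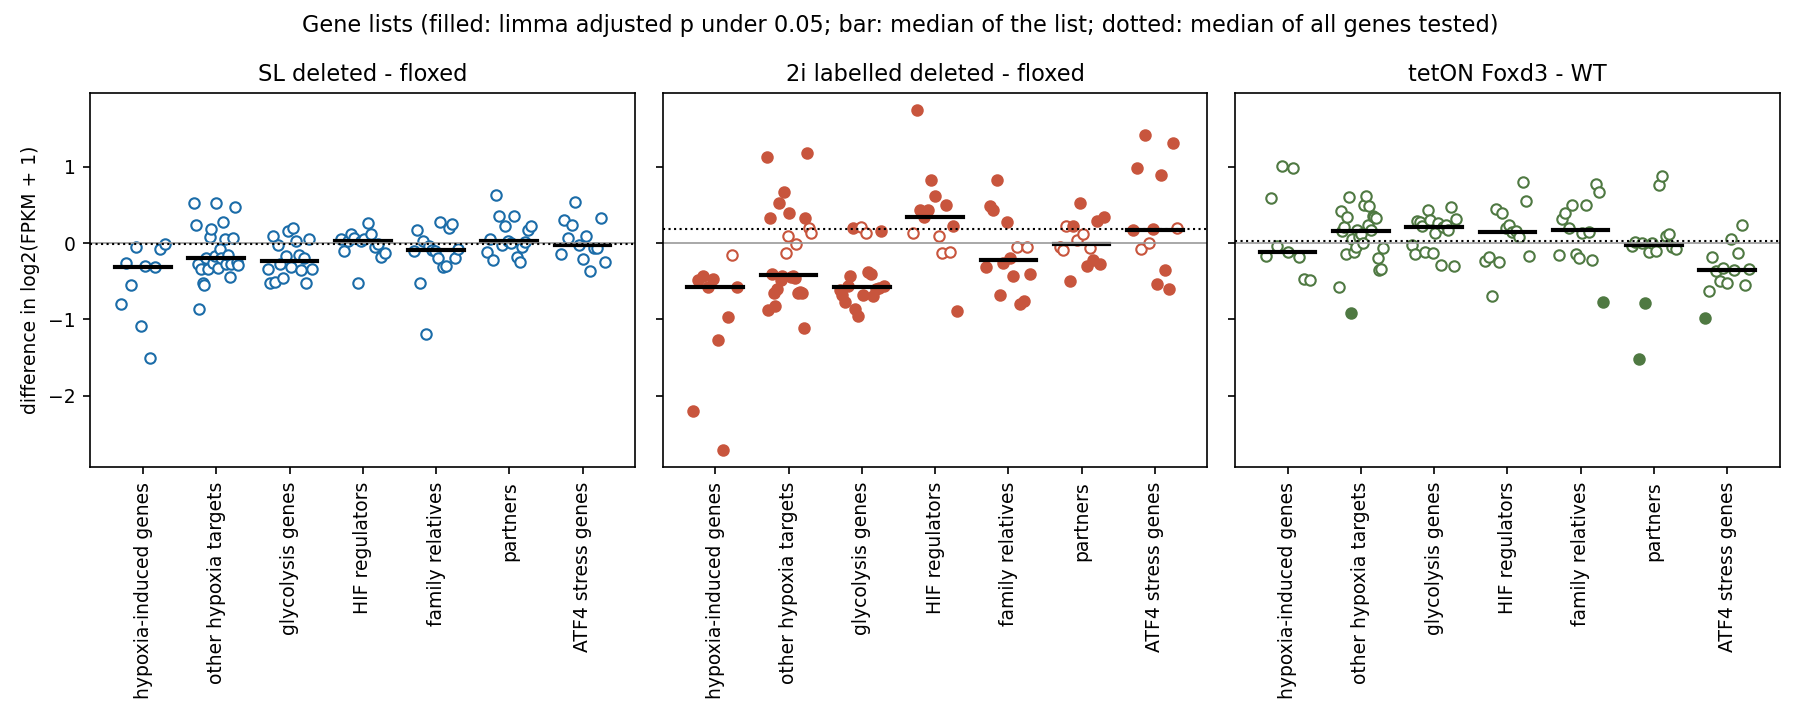
Difference in log2(FPKM + 1) of every gene tested in 7 lists, by comparison; filled points passed limma at an adjusted p under 0.05, bars are list medians and the dotted line is the median of all genes tested. In 2i the hypoxia-induced genes and glycolysis genes have medians of -0.57 and the HIF regulators 0.34, while SL has no filled point.

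Of 14 relatives of the hypoxia-induced genes tested in 2i, 4 were higher and 8 lower, beside 47.9% and 19.7% of all genes. Of the kinases that act on pyruvate dehydrogenase beside Pdk1, Pdk3 (-0.79) and Pdk4 (-0.76) fell. Ndrg2, a relative of Ndrg1, fell by 0.67, and in SL it differed by -1.19 (limma adjusted p = 0.0873). Vegfc, the lymphatic vessel growth factor, differed in overexpression by -0.77 (limma adjusted p = 0.0471). Of the partners of the members, 4 of 14 rose and 4 fell in 2i, beside 47.9% and 19.7% of all genes. P4hb, which joins P4ha1 in the collagen hydroxylase, fell by 0.50, while Pdp1 (0.52), the phosphatase that undoes the action of Pdk1, Tsc2 (0.34), through which Ddit4 acts on mTOR, and Pdha1 (0.22), the substrate of Pdk1, rose, of which Tsc2 (0.13) and Pdha1 (-0.0048) no longer passed after scaling. In overexpression Nrp2, a receptor of the VEGF family, and Pdha1 fell by 1.52 and 0.78 (limma adjusted p = 0.0177 and 0.0448). After scaling in 2i, 2 relatives were higher and 8 lower, and 1 partner was higher and 7 lower. Of all genes 30.3% were then higher and 33.8% lower.

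Ddit4 is also a target of ATF4, the factor of amino acid and endoplasmic reticulum stress, so ATF4 targets were set beside it. In 2i 6 of 12 were higher, 3 lower and 3 did not pass, near the 47.9% higher and 19.7% lower of all genes. Trib3 (1.31) and Sesn2 (0.90) rose, Slc3a2 (-0.60) and Phgdh (-0.54) fell, and Ddit4 stood at -0.57. After scaling 4 were higher and 5 lower, beside 30.3% and 33.8% of all genes. None passed limma in SL. At an unadjusted p under 0.05, 1 was lower and 2 higher there, beside 3.05% of all genes lower. In overexpression Asns fell by 0.98 (limma adjusted p = 0.0237). At an unadjusted p under 0.05, 4 of 13 were lower and 0 higher in overexpression, beside 10.4% of all genes lower. The lists overlap in 5 genes, Egln1 and Egln2 among them.

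To describe what else varied like these genes, log2(FPKM + 1) was centred within each table and compared over the 12 libraries with the mean of the 10 standardized genes. Among 10678 other genes searched, Cenpa, a centromeric histone gene, had the highest Pearson r, 0.980, followed by Pfkl (0.965), the lactate exporter gene Slc16a3 (0.964), the lipoprotein receptor gene Scarb1 (0.960) and Fam114a2 (0.954). Slc16a3 ranged widely, with 77.0 and 16.9 FPKM in tetON Foxd3, 58.8 and 13.5 FPKM in WT, and 19.4 and 31.3 against 57.2 and 51.6 FPKM in 2i. Cenpa varied over a narrow range, from 98.8 FPKM in tetON Foxd3 library 2 to 138 FPKM in SL floxed library 2. Each of the 10 genes against the mean of the others ranged from 0.746 for Vegfa to 0.974 for P4ha1. Hif1a stood at -0.538, Epas1 at 0.309, Arnt at 0.209, Vhl at 0.588 and Egln1 at 0.674. The points share tables, groups and library numbers, so these values only describe the 12 libraries.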

How the data were processed

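Polyadenylated RNA of 12 mouse embryonic stem cell libraries was sequenced with TruSeq v2 kits, per the labels' protocols. The authors deposited 3 tables, 1 per comparison, with FPKM per library, a mean read signal per group, a signed fold (ratio of groups) and an unadjusted p-value, per the file headers. The submitters' processing notes name TopHat2, SAMtools, Cufflinks, DESeq2 and FastQC, with GRCm38 and mm10 as builds; no source used here gives versions. FPKM carries no counts, so the depth per library is unknown and no count test was run. Which medium a deletion table holds was taken from its name, and each column was matched by its own name.

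Here log2(FPKM + 1) was fitted with limma 3.58.1 (limma-trend, R 4.3.3) over all genes whose mean reached 1 FPKM in 1 or both groups, 4 libraries per comparison (2 residual degrees of freedom) and 8 for the difference between media, with Benjamini-Hochberg adjustment and a threshold of 0.05. The pseudocount shrinks differences of low genes. With 2 libraries against 2, an exact permutation test reaches p = 0.333 at best and was not used. The main fits were run on simulated data with known folds, with spreads shuffled among genes and no effect of the replicate number. The simulation therefore does not cover a likeness of same-numbered libraries. Alternatives were a pseudocount of 0.1, no filter, median-of-ratios scaling, the replicate number as a block, leaving out each library, all 12 libraries in 1 fit, and the authors' p-values adjusted here over each table. Another, without genes listed at 0 FPKM whose group had over 200 mean reads, was chosen after seeing the data.

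The 10 genes and all lists were chosen with earlier results of these data known. Named were the 10 genes, Foxd3, all HIF regulators tested, up to 4 genes of each other list per comparison by smallest adjusted p, markers listed at 0, and the 5 genes most like the 10. Rbx1, Tceb1, Bnip3l, Gapdh, Eno1, Psat1 and S100a4 were not matched to a row of their own and are not used here.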

Additional observations from a re-analysis of the deposited data

Results flagged for a closer look

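For Adm the difference between the libraries labelled deleted and floxed differed between 2i and SL by -1.41 on the log2(FPKM + 1) scale (limma interaction, adjusted p = 0.0378). The 2i difference was -2.21 and the SL difference -0.80. For Ndufa4l2 the same contrast was -1.21 (limma interaction, adjusted p = 0.0123), from -2.71 in 2i and -1.51 in SL. Both were picked out because the contrast of libraries labelled deleted and floxed differed between the media by a test of the difference itself. In 2i, Foxd3 does not bear out the label, so these values compare the libraries labelled deleted.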

How the results depend on the processing

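Pseudocount and scaling left the counts of hypoxia-induced genes within 1.5 times of those reported, and p-values measure a spread of 2 libraries. All genes called in SL numbered 1 and became 172 with all 12 libraries in 1 fit, 107 by the authors' p-values and 0 (limma; 1096 at an unadjusted p under 0.05) without failed estimates; hypoxia-induced genes lower were 1 by the authors' p-values. In 2i the count of 9 became 1 with all 12 libraries in 1 fit. In overexpression the 316 genes called became 0 with no filter (limma; 3232 at an unadjusted p under 0.05), 1727 with all 12 libraries in 1 fit and 909 by the authors' p-values. Between media the 2 genes lower became 1 with no filter. The cause was not tested. Reversed values were Foxd3 in 2i (0.77) and Ankrd37 in overexpression (0.30) by the authors' folds and Bnip3 between media after scaling (-0.10).

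Leaving out 1 library leaves a lone one, assumed to vary like the other groups, and gave 1 to 313 genes called in SL, 42 to 342 in overexpression and 683 to 3761 between media. Hypoxia-induced genes lower were then 0 to 5 in SL, 7 to 10 in 2i and 0 to 4 between media. Differences that changed sign ran in SL from -0.68 to 0.075 (Ndrg1), -0.75 to 0.11 (P4ha1), -0.68 to 0.15 (Ankrd37), -0.51 to 0.49 (Vegfa), -0.28 to 0.11 (Pdk1) and -0.60 to 0.50 (Ddit4), and in 2i from -0.34 to 0.042 (Pdk1). In overexpression they ran from -0.86 to 0.64 (Ndrg1), -1.02 to 0.66 (P4ha1), -1.17 to 3.15 (Ndufa4l2), -0.46 to 2.47 (Egln3), -0.47 to 1.64 (Bnip3), -1.33 to 0.98 (Ankrd37), -0.94 to 0.0049 (Pdk1) and -0.64 to 0.57 (Ddit4). Between media they ran from -0.10 to 1.33 (Egln3), -0.42 to 0.65 (Bnip3), -0.63 to 0.19 (Ankrd37), -0.27 to 0.12 (Pdk1) and -1.07 to 0.027 (Ddit4).

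Groups share replicate numbers, which no label ties to a culture or day. Over all genes, deviations of same-numbered libraries had a Pearson r of 0.605 in SL, -0.0539 in 2i and 0.596 in overexpression. With the replicate block the genes called were 1997 in SL, 2473 in overexpression and 5342 between media. Of the hypoxia-induced genes, 6 were then lower in SL (Adm, Bnip3, Egln3, Ndrg1, Ndufa4l2 and P4ha1, beside 6.87% of all genes). In this SL fit each gene's spread was taken from genes of like level alone. In 2i 9 of the hypoxia-induced genes were lower with the block, beside 2198 of 11637 genes. Between media 6 were lower and 1 higher, beside 11.3% and 31.4% of all genes. In overexpression Egln3 (1.01), Ndufa4l2 (0.99) and Bnip3 (0.59) were higher and Vegfa (-0.49) lower with the block, 3 and 1 genes beside 10.3% and 10.4% of all genes.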
